A study of Rattus norvegicus with 20 samples.

Results

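The insulin receptor signalling chain was followed in inguinal white adipose tissue (iWAT), a subcutaneous fat depot of the rat, through 9 genes chosen by symbol. These are the receptor gene Insr, the adaptor genes Irs1 and Irs2, the genes Pik3r1 and Pik3ca for the regulatory and catalytic subunits of PI3K, the kinase genes Akt1 and Akt2, the AKT substrate gene Tbc1d4 and the receptor brake Grb10. They are 9 of the 32545 genes of the count table, and all 9 passed the filter on low counts that left 17653 genes. The study asked what an inhibitor of protein kinase C (PKC) α and β, called Cmpd 1, does in obese diabetic rats, and RNA-seq of iWAT was read from 20 male ZSF1 rats, 5 per group. ZSF1 obese rats carry the fa and the cp allele of the leptin receptor gene.

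All groups ate Purina 5008 chow, a high carbohydrate diet to which, per the paper, they had been switched weeks before the study. The study itself lasted 10 weeks. Rats entered it at 21 to 22 weeks of age and were about 32 weeks old when tissue was taken. The Lean group was ZSF1 lean rats on plain chow given freely, and the Obese group was ZSF1 obese rats fed the same way. The Cmpd 1 group was obese rats with the compound mixed into the chow. The Food matched group was rats on plain chow restricted each week to what the Cmpd 1 group had eaten in the week before, and they were taken as obese from their titles although their phenotype label reads lean. Every obese group thus carries the leptin receptor defect in all cells, and the inhibitor reached the whole animal rather than fat alone. Each library came from a separate rat, so the p-values below measure the spread between rats.

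Insulin binding turns on the receptor's tyrosine kinase, which marks the IRS adaptor proteins, and these recruit PI3K to the membrane. The lipid made by PI3K brings AKT to the membrane, where it is activated, and AKT then marks TBC1D4, a brake on the traffic of the glucose transporter GLUT4 to the cell surface. In fat cells this chain raises glucose uptake and lipid storage and restrains lipolysis. GRB10 binds the active receptor and dampens it. RNA levels do not give the phosphorylation state of any of these proteins.

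Libraries held 50604956 to 68048796 counted reads in Lean, 56743417 to 70206686 in Obese, 54649679 to 74784655 in Food matched and 31716457 to 65759306 in Cmpd 1 rats. The 8 adipocyte markers marked the tissue as fat in each library, with a summed level of at least 19099 CPM (reads of a gene scaled to a common library size), although Pnpla2, an adipocyte lipase gene, averaged under 1 CPM in each group. Lean rats 1 and 2 also held skeletal muscle transcripts, with summed marker levels of 3238 and 5645 CPM while the remaining Lean libraries held 25.0 CPM or less, and Lean results were therefore also computed without both.

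Each of the 9 genes differed among the 4 groups (edgeR quasi-likelihood test of any difference, largest adjusted p = 0.0085, for Irs2), a test that 54.6% of all genes passed. In Obese against Lean rats 8 genes were lower and Akt1 was higher. In Cmpd 1 against Food matched rats Insr, Irs1, Akt2 and Tbc1d4 were higher and Akt1 was lower. Pik3r1, with Irs1 the most reduced of the 9 genes in Obese rats, was at 77.9 ± 15.6 CPM (SD, n = 5) in Cmpd 1 rats, against 71.7 ± 6.34 CPM in Food matched and 130.3 ± 23.2 CPM in Lean rats. Fewer cells of a type cannot be told apart from less RNA per cell in whole tissue.

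**Figure D1:**
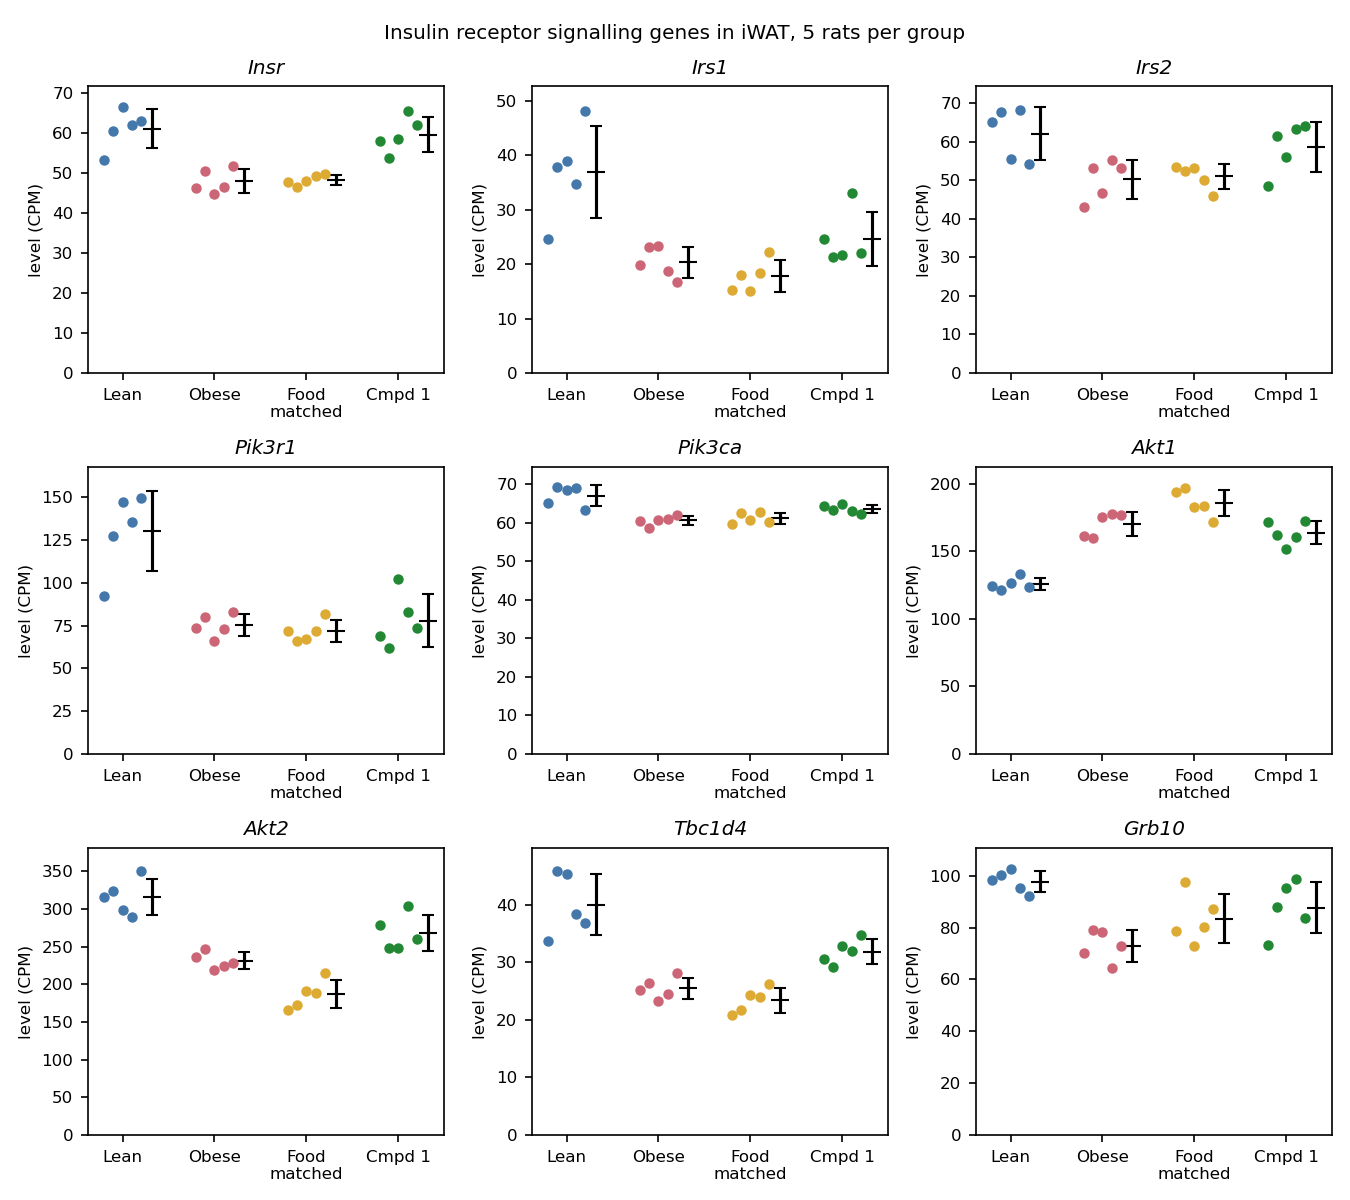
Level of each of the 9 genes in CPM (vertical axes, from 0) in the 4 groups. Each point is a rat and the bars give the mean and SD of 5 rats. Insr in Cmpd 1 rats (53.8 to 65.4 CPM) lies within the range of Lean rats (53.3 to 66.6 CPM), while Pik3r1 in 4 of 5 Lean rats lies above every other rat.

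The annotated start regions of the genes whose levels fell most in Obese rats are shown with that of the receptor. Which start of each gene was used in iWAT is not given by counts per gene. Sequences are the 250 bases before the annotated start from RefSeq on build GRCr8, which matched 8 of the 9 genes. Insr lies at chr12:6128804-6129053, Irs1 at chr9:91053960-91054209, Pik3r1 at chr2:34697661-34697910 and Tbc1d4 at chr15:84848694-84848943, and each is printed 5′ to 3′ on the minus strand, which holds these genes. Capitals mark GTAAACA, the letters FOXO factors bind, or its reverse complement, and GGGCGG, the GC box, or its reverse complement.
Insr: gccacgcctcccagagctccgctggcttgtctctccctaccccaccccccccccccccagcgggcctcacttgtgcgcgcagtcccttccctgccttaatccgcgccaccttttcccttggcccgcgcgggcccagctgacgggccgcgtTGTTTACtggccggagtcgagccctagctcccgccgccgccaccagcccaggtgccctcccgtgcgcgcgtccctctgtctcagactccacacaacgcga
Irs1: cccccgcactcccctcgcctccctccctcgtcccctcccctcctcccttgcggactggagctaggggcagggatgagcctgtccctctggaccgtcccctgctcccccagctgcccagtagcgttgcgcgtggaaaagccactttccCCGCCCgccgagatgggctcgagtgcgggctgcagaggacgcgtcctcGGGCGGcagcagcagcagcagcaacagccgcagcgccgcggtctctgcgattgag
Pik3r1: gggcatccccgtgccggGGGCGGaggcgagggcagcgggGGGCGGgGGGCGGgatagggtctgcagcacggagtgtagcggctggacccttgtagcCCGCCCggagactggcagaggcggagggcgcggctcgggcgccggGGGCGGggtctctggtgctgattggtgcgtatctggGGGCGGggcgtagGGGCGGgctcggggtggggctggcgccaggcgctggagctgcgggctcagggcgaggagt
Tbc1d4: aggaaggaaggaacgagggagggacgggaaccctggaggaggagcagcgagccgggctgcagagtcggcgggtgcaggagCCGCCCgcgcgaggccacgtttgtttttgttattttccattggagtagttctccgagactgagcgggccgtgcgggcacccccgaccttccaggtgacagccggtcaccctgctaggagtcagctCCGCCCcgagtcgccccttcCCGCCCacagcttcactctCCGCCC

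The Insr window is 71.2% G and C and holds a single match to GTAAACA, 100 to 94 bases before the start. The windows of Irs1, Pik3r1 and Tbc1d4 hold 2, 7 and 4 GC boxes. Over the 8 windows, 2 held GTAAACA (Insr and Pik3ca), against 3.21% of all 33469 windows of that length, and 4 held a GC box, against 30.5%. CCAAT was in 2 of 8 (34.0% of all) and TATAAA in 1 of 8 (12.9% of all), each counted on both strands, and none of these motifs contains another. These are matches of letters and not measured binding.

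Insr, the receptor gene (chromosome 12 of rn6, 1680957 to 1816414, minus strand), was at 53.3, 60.5, 66.6, 62.1 and 62.9 CPM in the 5 Lean rats and at 46.3, 50.4, 44.8, 46.6 and 51.8 CPM in Obese rats. It was at 47.8, 46.4, 48.0, 49.2 and 49.8 CPM in Food matched rats and at 58.0, 53.8, 58.4, 65.4 and 61.9 CPM in Cmpd 1 rats. Every Lean and every Cmpd 1 rat was above every Obese and every Food matched rat. Obese was lower than Lean by a log2 fold change of −0.35 (SE 0.06, adjusted p = 5.2e-05, edgeR), and Cmpd 1 was higher than Food matched by 0.30 (SE 0.06, adjusted p = 0.0011, edgeR). The fold was thus modest, with no group mean outside 48.0 to 61.1 CPM. The difference did not pass the test within either pair, Lean with Cmpd 1 or Obese with Food matched. Cmpd 1 minus Lean was −0.04 on the log2 scale (95% interval −0.16 to 0.08), and Food matched minus Obese was 0.01 (95% interval −0.11 to 0.13).

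Irs1, an adaptor that couples the receptor to PI3K (chromosome 9, 88033668 to 88086488), had 24.6, 37.9, 38.9, 34.8 and 48.1 CPM in the Lean group and 19.8, 23.1, 23.4, 18.7 and 16.7 CPM in the Obese group. The lowest Lean rat, rat 1, was still above the highest Obese rat. The fall was 1.81-fold (log2 −0.86, SE 0.15, adjusted p = 0.0001, edgeR). In Food matched rats Irs1 was at 15.3, 18.0, 15.0, 18.4 and 22.2 CPM and in Cmpd 1 rats at 24.6, 21.4, 21.7, 33.0 and 22 CPM. These groups overlapped, and Cmpd 1 was higher by 0.46 (95% interval 0.14 to 0.78, adjusted p = 0.036, edgeR). Without Cmpd 1 rat 4, the 33.0 CPM animal, the difference was 0.33 (adjusted p = 0.14, edgeR), and it also missed the threshold without Cmpd 1 rat 1 or Food matched rat 1, 2, 3 or 4 and in limma-voom (adjusted p = 0.058). Irs1 in Cmpd 1 rats stayed below Lean by 1.51-fold (log2 −0.59, adjusted p = 0.0043, edgeR).

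Irs2, the other main adaptor (chromosome 16, 83824430 to 83848684), had 65.1, 67.8, 55.4, 68.2 and 54.1 CPM in the Lean group and 43.2, 53.2, 46.6, 55.2 and 53.1 CPM in the Obese group. Food matched rats were at 45.9 to 53.4 CPM and Cmpd 1 rats at 48.6 to 64.0 CPM. Here the Lean and Obese groups overlapped, the sole case among the 9 genes. Obese was lower, with a log2 fold change of −0.31 (SE 0.09, adjusted p = 0.0055, edgeR), a call lost without Lean rats 1 and 2 (−0.24, adjusted p = 0.054, edgeR). Cmpd 1 against Food matched was 0.20 (95% interval 0.02 to 0.38, adjusted p = 0.097, edgeR) and passed when Cmpd 1 rat 1 was left out (0.26, adjusted p = 0.026, edgeR).

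Pik3r1, the regulatory subunit that holds PI3K at the adaptors (chromosome 2, 31745088 to 31826867), had 92.0, 127, 147, 135 and 149.6 CPM in the Lean group and 73.7, 79.8, 66.1, 73.2 and 83.1 CPM in the Obese group. It was at 71.9, 66.0, 67.0, 71.9 and 82.0 CPM in Food matched rats and at 69.0, 61.7, 102, 83.1 and 73.6 CPM in Cmpd 1 rats. Obese was 1.73-fold lower than Lean with no overlap (log2 −0.79, SE 0.12, adjusted p = 2.4e-05, edgeR). The 3 obese groups overlapped widely, and of their rats Cmpd 1 rat 3 alone exceeded the lowest Lean rat. Cmpd 1 minus Food matched was 0.12 (95% interval −0.14 to 0.38, adjusted p = 0.56, edgeR), with an upper end below the size of the fall from Lean to Obese. Cmpd 1 was below Lean by 1.67-fold (log2 −0.74, adjusted p = 8.6e-05, edgeR).

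Pik3ca, the catalytic subunit (chromosome 2, 118831350 to 118861454), varied least, both between groups and between rats of a group. Lean rats were at 63.3 to 69.2 CPM, Obese at 58.7 to 62.1, Food matched at 59.6 to 62.8 and Cmpd 1 at 62.3 to 64.8 CPM. Every Obese rat was below every Lean rat, though by a small amount (log2 −0.15, SE 0.03, adjusted p = 0.0014, edgeR). The pooled SD between rats of a group was 0.04 on the log2 scale for Pik3ca, against 0.27 for Irs1 and 0.22 for Pik3r1. Cmpd 1 minus Food matched was 0.06 (95% interval −0.02 to 0.13, adjusted p = 0.27, edgeR).

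Akt1, a kinase present in most cell types (chromosome 6, 137218376 to 137236258), moved against the rest of the chain. It had 124, 122, 127, 133 and 124 CPM in the Lean group and 161, 160.2, 176, 178 and 177 CPM in the Obese group. Food matched rats were at 194, 197, 183, 184 and 172 CPM and Cmpd 1 rats at 171, 162, 152, 160.3 and 172 CPM. Lean rats stood below all others. Akt1 was higher in Obese than in Lean rats by 0.43 (SE 0.05, adjusted p = 2.7e-07, edgeR) and lower in Cmpd 1 than in Food matched rats (log2 −0.18, SE 0.05, adjusted p = 0.0087, edgeR), where the groups overlapped. It stayed above Lean in Cmpd 1 rats by 0.38 (adjusted p = 4e-06, edgeR).

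Akt2, the AKT form tied to insulin-driven glucose uptake (chromosome 1, 84411726 to 84450162), had 316, 324, 299, 290.1 and 350.4 CPM in the Lean group and 237, 248, 219, 224 and 229 CPM in the Obese group. It was at 167, 173, 192, 188 and 216 CPM in Food matched rats and at 279.6, 249, 249, 304 and 261 CPM in Cmpd 1 rats. The 4 groups stood in the order Lean, Cmpd 1, Obese and Food matched, and of neighbouring groups only Lean and Cmpd 1 overlapped. Obese was lower than Lean, with a log2 fold change of −0.45 (SE 0.07, adjusted p = 2.2e-05, edgeR). Cmpd 1 was 1.43-fold higher than Food matched (log2 0.52, 95% interval 0.37 to 0.67, adjusted p = 8.7e-05, edgeR), the largest difference among the 9 genes in that comparison. Food matched rats were below Obese rats without overlap, yet the difference of −0.31 had an adjusted p of 0.11 in edgeR. It passed in DESeq2 (−0.30, adjusted p = 0.0088), and in edgeR without Food matched rat 5 (−0.36, adjusted p = 0.015).

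Akt2 and Akt1 thus moved oppositely, and their ratio per base of gene length, taken in each rat, shows it within a library. It was 3.06 ± 0.313 (SD, n = 5) in Lean, 1.66 ± 0.164 in Obese, 1.24 ± 0.193 in Food matched and 2.00 ± 0.186 in Cmpd 1 rats. Every Cmpd 1 rat (1.84 to 2.31) was above every Food matched rat (1.05 to 1.53) and below every Lean rat (2.65 to 3.45). The ratio of Pik3r1 to Pik3ca was 2.99 ± 0.547 in Lean and 1.91 ± 0.168, 1.81 ± 0.182 and 1.89 ± 0.359 in Obese, Food matched and Cmpd 1 rats. The ratio of Irs1 to Irs2 was 0.738 ± 0.237 in Lean, with a range of 0.459 to 1.08 that reached into that of Obese rats (0.383 to 0.609). These ratios describe the rats and were not tested.

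**Figure D2:**
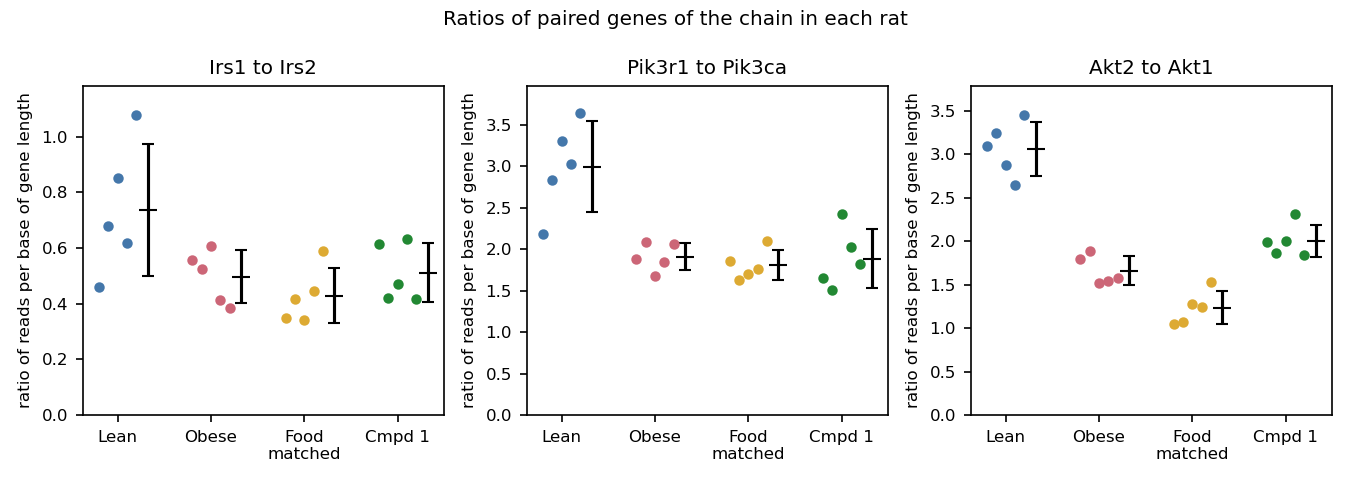
Ratio of reads per base of gene length between paired genes of the chain in each rat (vertical axes, from 0), with the mean and SD of 5 rats per group. The Akt2 to Akt1 ratio places Cmpd 1 rats (1.84 to 2.31) between Food matched (1.05 to 1.53) and Lean rats (2.65 to 3.45), whereas the Pik3r1 to Pik3ca ratio is alike in the 3 obese groups.

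Tbc1d4, whose protein holds GLUT4 vesicles inside the cell until AKT marks it (chromosome 15, 85930044 to 86105273), had 33.7, 45.8, 45.3, 38.4 and 36.8 CPM in the Lean group and 25.2, 26.3, 23.2, 24.5 and 28.1 CPM in the Obese group. It was at 20.8, 21.7, 24.2, 24.0 and 26.3 CPM in Food matched rats and at 30.6, 29.2, 32.8, 32.01 and 34.8 CPM in Cmpd 1 rats. All Cmpd 1 rats were above all Obese and all Food matched rats. Obese was 1.57-fold lower than Lean (log2 −0.65, SE 0.08, adjusted p = 1.6e-06, edgeR), and Cmpd 1 was 1.36-fold higher than Food matched (log2 0.44, SE 0.08, adjusted p = 0.00079, edgeR). Cmpd 1 was also higher than Obese (0.32, adjusted p = 0.014, edgeR) and lower than Lean (−0.33, adjusted p = 0.0033, edgeR).

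Grb10, the brake that binds the active receptor (chromosome 14, 92021851 to 92117923), had 98.3, 100.3, 103, 95.4 and 92.4 CPM in the Lean group and 70.2, 79.2, 78.3, 64.4 and 73.0 CPM in the Obese group. Food matched rats were at 73.0 to 97.8 CPM and Cmpd 1 rats at 73.4 to 98.6 CPM, ranges that nearly coincide. This brake was lower in Obese rats, as were 7 of the other 8 genes (log2 −0.42, SE 0.08, adjusted p = 0.0002, edgeR). Cmpd 1 minus Food matched was 0.07 (95% interval −0.09 to 0.24, adjusted p = 0.58, edgeR).

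Compared per kilobase of gene length, Akt2 had the highest level in Lean rats, at 159 CPM per kb, followed by Akt1 at 52.1, Pik3r1 at 31.4 and Grb10 at 18.7 CPM per kb. Pik3ca (10.5), Tbc1d4 (10.2), Irs2 (9.56), Insr (8.76) and Irs1 (6.88 CPM per kb) lay close together. In Food matched rats Akt2 at 94.3 CPM per kb and Akt1 at 76.9 CPM per kb came nearest to each other.

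For Obese against Lean 9 of 9 genes passed the test (48.2% of all genes did), 8 of them lower (24.5% of all genes) and 1 higher (23.7%). Irs1, Pik3r1 and Tbc1d4 were differentially expressed genes (DEGs, a fold over 1.5 at an adjusted p under 0.05), all of them lower, as were 11% of all genes. In 8 of 9 the groups did not overlap, against 33.6% of all genes, and the median log2 fold change was −0.42 against −0.01 over all genes. Without Lean rats 1 and 2, 8 of 9 genes passed, and Irs1, Pik3r1 (−0.94) and Tbc1d4 (−0.66) were the DEGs.

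Cmpd 1 against Food matched compares rats whose food intake was approximately matched, with a lag of a week. Per the paper these groups still differed in body weight, iWAT mass, adipocyte size and the iWAT area stained for the leukocyte marker CD45. Non-fasting serum insulin, per the paper, stayed high in Food matched rats. In Cmpd 1 rats it appeared reduced, prominently at the midpoint of the study and less evidently at its end. The part of these traits in the results below was not tested. In this comparison 5 of 9 genes passed (22.8% of all genes), 4 of them higher (11.4%) and 1 lower (11.4%). The groups of 3 of them, Insr, Akt2 and Tbc1d4, did not overlap (14.9%). The median was 0.20 against 0.01 over all genes. By edgeR 0 of 9 were DEGs (6.19% of all genes), as by limma-voom and DESeq2, while 6 of 9 had an unadjusted p under 0.05 (33.8% of all genes).

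These comparisons share no rats. The fold change of each of the 9 genes in one had the opposite sign to that in the other, as it had for 69.4% of all genes. Among genes that passed in both, the signs were opposite for 5 of 5 (Insr, Irs1, Akt1, Akt2 and Tbc1d4) and for 96.5% of all genes, so the opposite signs of these 5 are close to what the whole table shows.

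Other comparisons share animals with these and are given side by side. For Cmpd 1 against Obese 4 of 9 genes were higher (7.09% of all genes) and 0 lower: Insr (0.31, adjusted p = 0.0027), Tbc1d4 (0.32), Grb10 (0.26, adjusted p = 0.034) and Akt2 (0.21, adjusted p = 0.047), all from edgeR. The calls of Akt2 and Grb10 depended on single rats. Leaving out Obese rat 1, 4 or 5 or Cmpd 1 rat 4 took away both and left 2 of 9. Akt2 also missed without Lean rat 3, 4 or 5, Obese rat 3, Food matched rat 3 or 4 or Cmpd 1 rat 1 or 5 (largest adjusted p = 0.15 over all these fits, edgeR), and Grb10 without Cmpd 1 rat 2 or 3 (largest adjusted p = 0.11, edgeR). For Food matched against Obese 0 of 9 genes passed in edgeR, as 0% of all genes did, with 3 of 9 at an unadjusted p under 0.05 (Akt1, Akt2 and Grb10; 10.7% of all genes), 0 called by limma-voom and 1 by DESeq2. The groups did not overlap for Akt2, as for 2.04% of all genes. For Cmpd 1 against Lean 5 of 9 passed (39% of all genes), namely Akt1 higher and Irs1, Pik3r1, Akt2 and Tbc1d4 lower, with Irs1 and Pik3r1 as DEGs (9.11% of all genes were lower DEGs). The fold of Irs1 lies at the limit of 1.5, and without Lean rat 2, 3 or 5 or Cmpd 1 rat 2, 3 or 5 the count of DEGs was 1. For Food matched against Lean 9 of 9 passed (52.2% of all genes), with Akt2 (1.69-fold lower) a DEG beside Irs1, Pik3r1 and Tbc1d4 (12.8% of all genes were lower DEGs). Grb10 in that comparison (−0.23, adjusted p = 0.021, edgeR) missed the threshold without Lean rat 3 or Food matched rat 1 or 3 (largest adjusted p = 0.068, edgeR), and both Grb10 and Irs2 missed it without Lean rats 1 and 2 together (adjusted p = 0.071 and 0.073, edgeR).

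**Figure D3:**
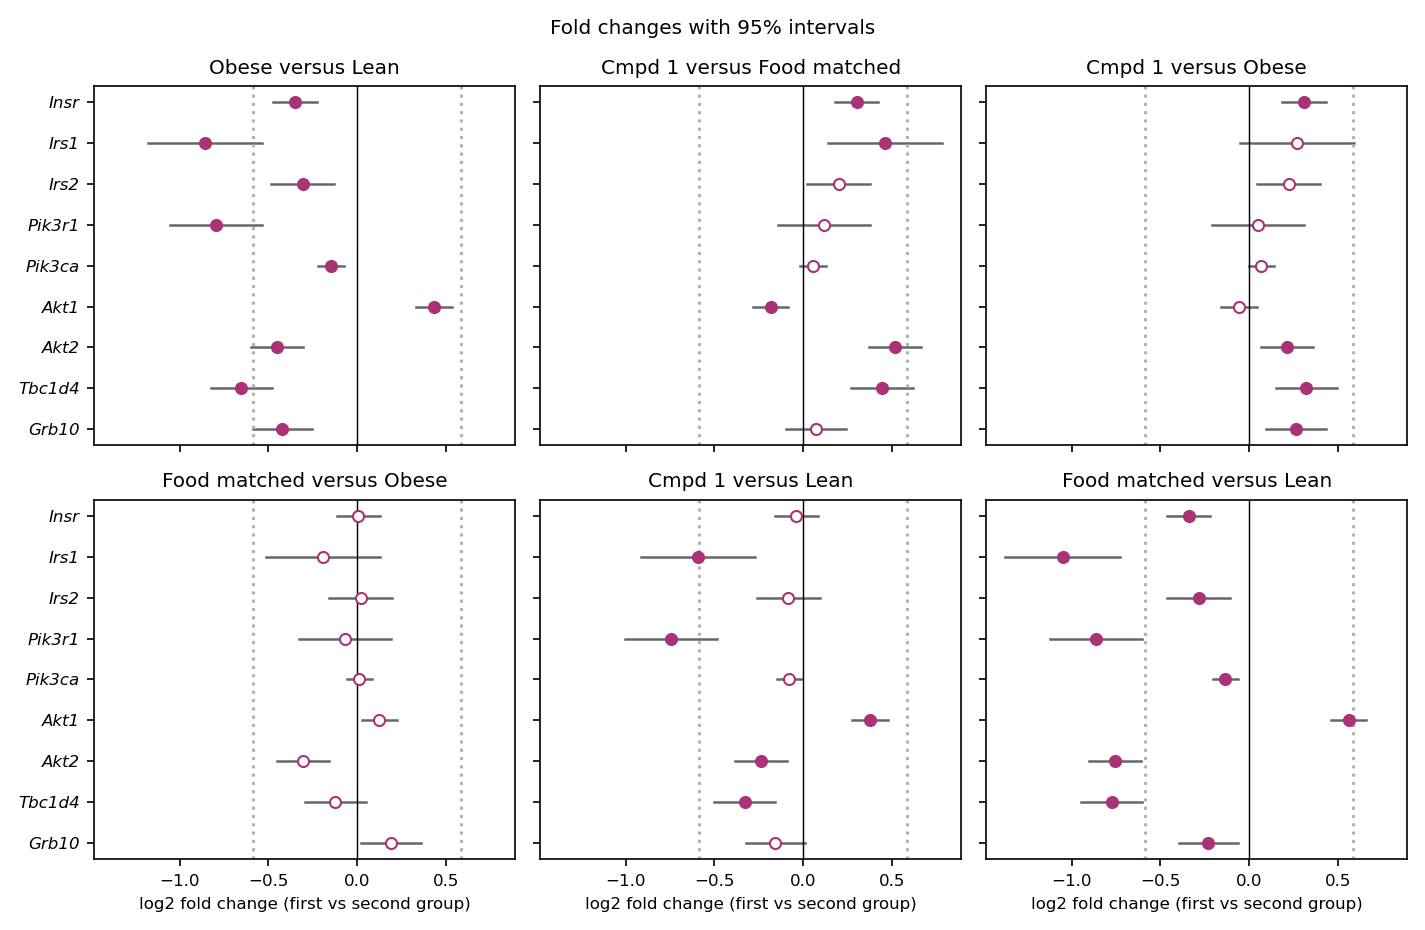
Log2 fold changes of the 9 genes (horizontal axes) in each of the 6 comparisons, with 95% intervals from the edgeR model as lines. In Obese versus Lean Akt1 at 0.43 is the sole gene to the right of 0, and in Cmpd 1 versus Food matched Akt2 at 0.52 lies farthest to the right and Akt1 at −0.18 is the sole gene to the left.

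The tissue holds several cell types, and their markers were summed in each rat. The 9 macrophage markers summed to 1463 to 1658 CPM in Lean and 1907 to 2325 CPM in Obese rats. In Food matched rats they summed to 2124 to 3214 CPM and in Cmpd 1 rats to 1616 to 2030 CPM. By their means the groups stood in the same order as for Akt1. The order was the reverse of that for Irs1, Pik3r1, Akt2 and Tbc1d4. Of the 9 macrophage markers 6 rose and 3 fell in Obese against Lean rats (Cd163, C1qa and C1qb fell). In Cmpd 1 against Food matched rats 6 were lower and 0 higher, in edgeR. Food matched rat 5, with the lowest macrophage sum of its group, had the lowest Akt1 and Irs2 of its group. This rat also had the highest Insr, Irs1, Pik3r1, Akt2 and Tbc1d4 of the group, and the most skeletal muscle transcripts (89.9 CPM). In the other groups the rat with the lowest macrophage sum did not have the lowest Akt1. Akt1 was at 124 CPM in Lean rat 5 (lowest 122) and 161 CPM in Obese rat 1 (lowest 160.2). In Cmpd 1 rat 1 it was at 171 CPM (lowest 152). The 8 adipocyte markers summed to 24950 to 29292 CPM in Lean and 20608 to 24500 CPM in Obese rats, but to 19099 to 24280 CPM in Food matched and 20457 to 21969 CPM in Cmpd 1 rats, which overlap. Of the adipocyte markers 6 fell and 1 rose in Obese against Lean rats. Between Cmpd 1 and Food matched, 5 were higher and 2 lower under the compound. Adipoq (4144 to 5168 CPM, against 2761 to 3786) and Lipe (1044 to 1447, against 759 to 922) were higher under Cmpd 1 without overlap. Fabp4 (6774 to 7824 CPM, against 8003 to 9942) and Lep (3214 to 3889, against 4245 to 5748) were lower without overlap. Fabp4 was the largest part of the sum, so the overlap of the sums does not hold for each marker. The 5 endothelial markers tested summed to 755 to 842, 567 to 844, 536 to 755 and 593 to 773 CPM by group, in the order above. In the same order the 6 fibroblast markers summed to 8318 to 11484, 11572 to 18865, 10526 to 14926 and 10213 to 11275 CPM. Of these, Col1a1, Col3a1 and Lum rose and Dcn and Dpt fell in Obese against Lean rats, while Dpt was higher and Lum lower in Cmpd 1 than in Food matched rats, in edgeR. The 4 smooth muscle markers summed to 376 to 820, 265 to 348, 277 to 323 and 222 to 330.1 CPM. The 6 lymphocyte markers stayed at or below 9.94 CPM in each rat, and the 6 of glandular epithelium reached 159.6 CPM in Lean rat 2 and 50.5 CPM in Obese rat 4. The part of these cell types in the results for the 9 genes was not tested.

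**Figure D4:**
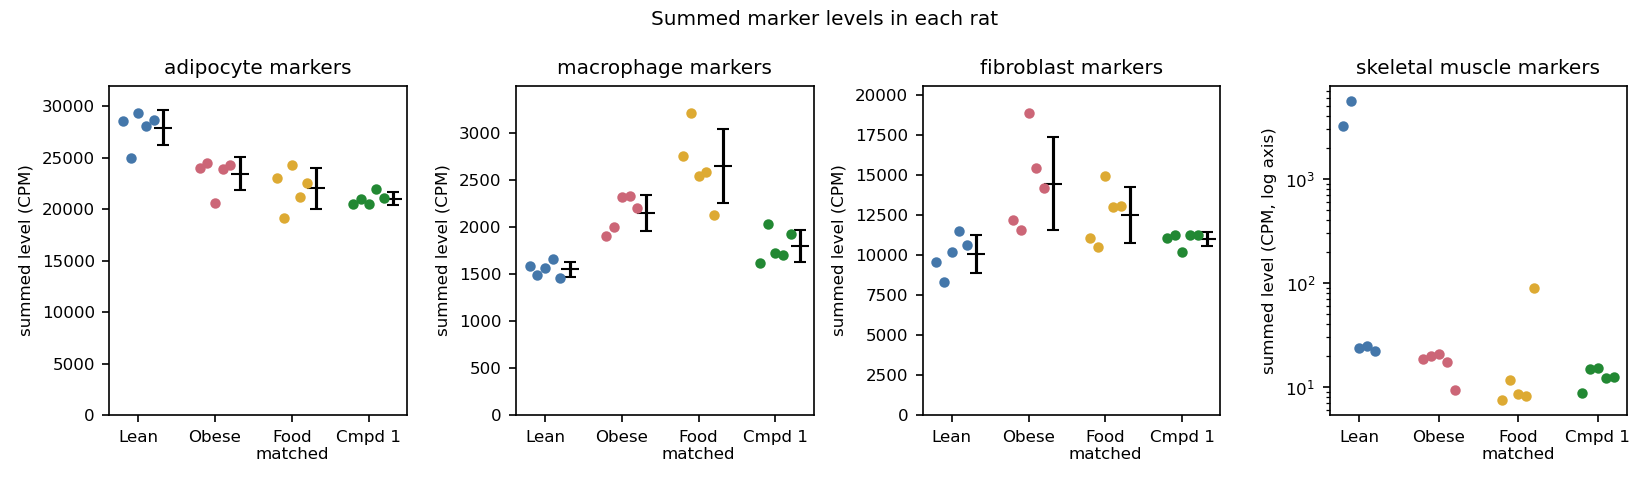
Summed level in CPM of marker genes of fat and of other cell types in each rat, with the skeletal muscle panel on a log axis. Macrophage markers are highest in Food matched rats (2124 to 3214 CPM), and Lean rats 1 and 2 stand apart for skeletal muscle markers (3238 and 5645 CPM).

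By the distance between centred log2 CPM over the 20 rats (root mean square, 0 for an identical pattern), the nearest of 8788 genes with at least 10 CPM were sought for each gene. Insr was nearest to Sik2 (0.06), a kinase abundant in fat cells, and to Vamp2 (0.07), a vesicle fusion protein, where the distance of Insr from a flat line was 0.18. Akt2 was nearest to Wdr6 (0.07) and to Mccc2 (0.09), a subunit of an enzyme of leucine breakdown, with 0.30 from a flat line. Akt1 was nearest to Arpc4 (0.05), an actin branching subunit, and to 1 gene row of Grb2 (0.05), an adaptor of the wider pathway, with 0.22. Irs1 was nearest to Srebf1 (0.18), a regulator of lipid synthesis, with 0.46, and Tbc1d4 to Thrb (0.11), a thyroid hormone receptor, with 0.32. Pik3r1 was nearest to Dtna (0.15, with 0.39), Irs2 to Rhobtb1 (0.11, with 0.18) and Grb10 to Eef2k (0.11, with 0.19). For Pik3ca the nearest gene, Hp1bp3 (0.04), was not much nearer than a flat line (0.07). Within the chain, Akt2 lay nearest to Tbc1d4 (0.16) and Insr to Pik3ca (0.14). Pik3ca, itself close to a flat line, was also the nearest for Irs2, Grb10 and Akt1. For Akt1 it was farther (0.27) than a flat line (0.22), so nearness to Pik3ca does not show a shared pattern.

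Of 73 other genes of the insulin pathway that were tested, 24 rose and 19 fell in Obese against Lean rats, with a median log2 fold change of 0.00. Of all genes 23.7% rose and 24.5% fell. In Cmpd 1 against Food matched rats 13 were higher and 9 lower, with a median of 0.04 (11.4% of all genes in either direction). Higher and lower genes were thus similar in number over the wider pathway. The counts by role below are to be read beside these shares of all genes. Igf1r, the receptor most like Insr, was at 6.74 ± 1.58 CPM (SD, n = 5) in Lean and 5.17 ± 1.08 CPM in Obese rats (−0.38, adjusted p = 0.054 in edgeR and 0.043 in limma-voom).

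Among 9 other adaptors 3 were higher and 3 lower in Obese rats. Irs3, the rodent adaptor of fat, had 65.7 ± 7.62 CPM in the Lean and 49.6 ± 4.15 CPM in the Obese group (−0.41, adjusted p = 0.0068, edgeR) and was 0.36 higher in Cmpd 1 than in Food matched rats (adjusted p = 0.030, edgeR), a call lost without Food matched rat 1, 2, 3 or 4 or Cmpd 1 rat 2, 4 or 5 (largest adjusted p = 0.080, edgeR). Cbl, an adaptor and ubiquitin ligase, was higher in Obese rats (0.68, adjusted p = 5.3e-05, edgeR).

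Among 7 other PI3K genes 4 were higher and 1 lower in Obese rats. Pik3cd, a catalytic subunit typical of leukocytes, was at 27.95 ± 3.10 CPM in Lean, 97.7 ± 14.1 in Obese, 105 ± 13.4 in Food matched and 73.4 ± 9.69 CPM in Cmpd 1 rats. That is 1.81 higher on the log2 scale in Obese than in Lean rats (adjusted p = 4.2e-10, edgeR) and −0.52 in Cmpd 1 against Food matched (adjusted p = 0.0018, edgeR). Pik3r5, a regulatory subunit of leukocytes, behaved alike (1.89 and −0.91). Pik3r2, a further regulatory subunit of the kind Pik3r1 encodes, was a little lower in Obese rats (−0.15, adjusted p = 0.028, edgeR) and higher in Cmpd 1 than in Food matched rats (0.36, adjusted p = 0.00022, edgeR), where Pik3r1 did not pass. Its fall in Obese rats missed the threshold without Lean rat 1 or 4 or Obese rat 2, 4 or 5 (largest adjusted p = 0.092, edgeR).

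Prkci, an atypical PKC gene, fell in Obese rats (−0.59, adjusted p = 9.2e-07, edgeR) and was higher in Cmpd 1 than in Food matched rats (0.35, adjusted p = 0.0018, edgeR), the directions of Akt2. Of 8 other brakes on the receptor 4 were higher and 2 lower in Obese rats. The phosphatase genes Ptpn1 and Ptpn2, which dephosphorylate the receptor, were higher (0.20 and 0.37) and were lower in Cmpd 1 than in Food matched rats (−0.31, adjusted p = 0.0057, and −0.36, adjusted p = 0.00027, edgeR), whereas Enpp1 (−0.50), an inhibitor of the receptor, was lower in Obese rats like Grb10. The rise of Ptpn1 missed the threshold without Lean rat 1 or 2 or Obese rat 4 (largest adjusted p = 0.10, edgeR), and without Lean rats 1 and 2 together it was 0.13 (adjusted p = 0.24, edgeR). Of 9 brakes on the PI3K lipid and AKT, 3 were higher and 3 lower. Inpp5d, a lipid phosphatase of blood cells, rose by 1.36 in Obese rats, while Phlpp1, an AKT phosphatase, fell (−0.31).

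Downstream of AKT, 6 of 15 substrates were higher and 4 lower in Obese rats. Tbc1d1, the close relative of Tbc1d4, went the other way from Tbc1d4, at 50.3 ± 4.43 CPM in Lean and 75.4 ± 3.58 CPM in Obese rats (0.58, adjusted p = 1.4e-07, edgeR) and −0.24 in Cmpd 1 against Food matched (adjusted p = 0.008, edgeR). Gys1, a glycogen synthase, went with Tbc1d4 (−0.62 and 0.31). Of 14 genes of GLUT4 traffic 3 were higher and 3 lower. Slc2a4, the gene of GLUT4, had 185 ± 10.5 CPM in the Lean and 71.3 ± 9.04 CPM in the Obese group (−1.37, adjusted p = 1.7e-09, edgeR) and was at 106 ± 10.05 CPM in Cmpd 1 against 62.8 ± 10.4 CPM in Food matched rats (0.76, adjusted p = 7.4e-05, edgeR). Vamp2, the vesicle protein that lets GLUT4 vesicles fuse, moved the same way with smaller values (−0.30 and 0.28).

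**Figure D5:**
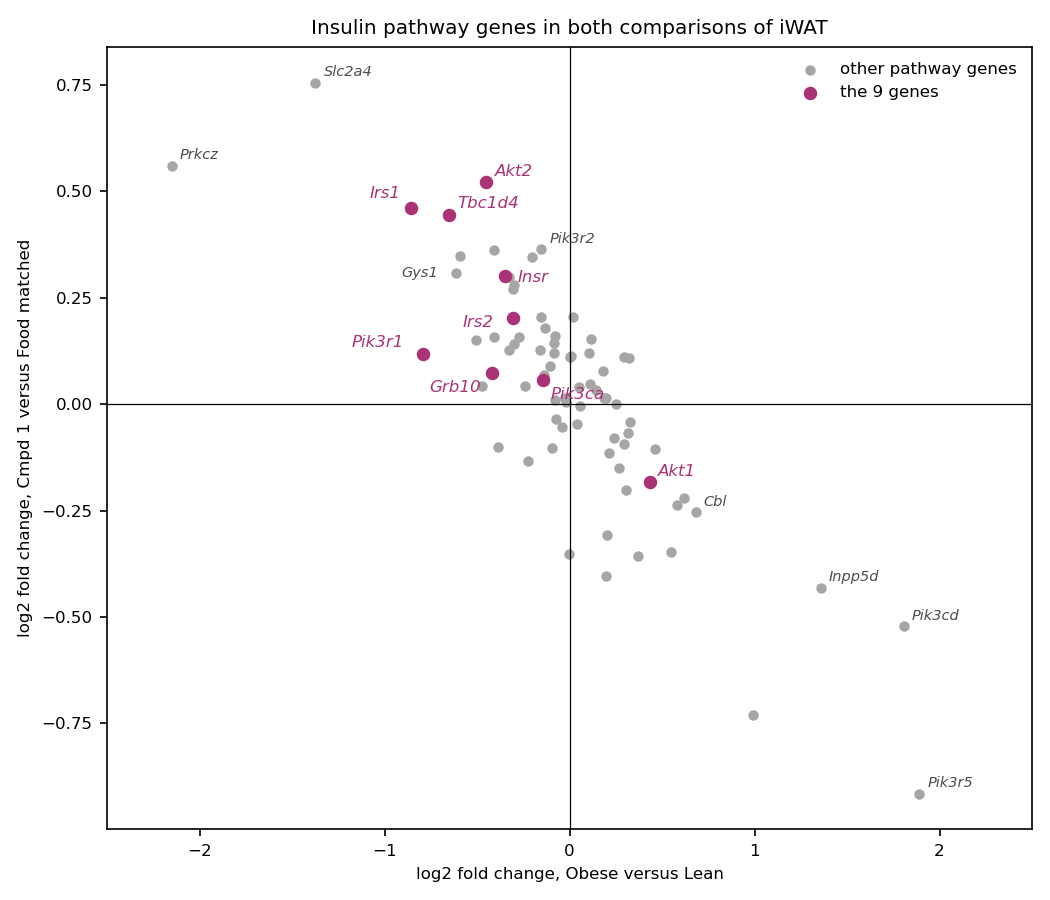
Log2 fold change in Obese versus Lean (horizontal axis) against that in Cmpd 1 versus Food matched (vertical axis) for the 9 genes and 69 other insulin pathway genes, with 4 genes under 1 CPM left out. Slc2a4 (−1.37 and 0.76) lies at the upper left and Pik3r5 (1.89 and −0.91) at the lower right.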

How the data were processed

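The authors deposited raw counts of reads per Ensembl gene for 20 iWAT libraries, with each gene's position and length. Their stranded mRNA libraries were mapped to rn6 per the paper, while STAR 2.5.2, Subread 1.5.1 (featureCounts) and GRCh38, a human build, stand in the submitters' processing notes for this rat table. Whether counting used strand is not given in the sources used here.

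Genes with no read in 10 or more libraries were left out, and 17653 of 32545 genes were fitted in 1 quasi-likelihood model of the 4 groups (edgeR 4.0.16, R 4.3.3, TMM, 16 residual degrees of freedom), with Benjamini-Hochberg adjustment over all genes tested. The standard error was taken from the fold change and its F value. CPM used TMM-scaled library sizes, and log2 CPM a prior count of 2. Levels per kb used the deposited gene length. limma 3.58.1 (voom) and DESeq2 1.42.0, the latter on the 22358 genes with any read, were other tools, and other scaling, no filter, a replicate block, leaving out each library and leaving out Lean rats 1 and 2 were further alternatives. The model was first tested on simulated data.

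The 9 genes, the pathway list (74 genes, 73 tested) and the marker lists were chosen with earlier results of these data known. Named pathway genes come from up to 3 per role with the smallest adjusted p for Obese versus Lean and up to 2 for Cmpd 1 versus Food matched. Grb2, a symbol of more than 1 gene row, was left out of the counts, and Pecam1 was not matched by symbol. A named pathway gene is not reported here.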

Additional observations from a re-analysis of the deposited data

Results flagged for a closer look

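Irs1 in Cmpd 1 rat 4 was at 33.0 CPM, with the nearest other Cmpd 1 rat at 24.6 CPM, a gap of 0.72 of the range of the group where Dixon's 95% critical value is 0.71. It was the sole such animal in 36 sets of a gene and a group, and chance gives about 1 in 20. Without it, Irs1 was 0.33 higher on the log2 scale in Cmpd 1 than in Food matched rats, with an adjusted p of 0.14 in edgeR. Cmpd 1 rat 4 was also the library with the fewest counted reads (31716457). It had the highest Insr, Akt2 and Grb10 of its group as well.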

How the results depend on the processing

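The 9 genes had at least 832 reads in each library, so counts of 0 set no limit, and the number of rats (5 per group) sets the precision. Of the 9 genes' values under all alternatives, 1459 kept their direction and their side of the threshold, 36 lost a call, 9 gained one and 8 changed sign. For the named other pathway genes these were 1570, 37, 13 and 4. The values that changed sign passed the threshold under neither setting. Insr in Cmpd 1 versus Lean went from −0.039 to 0.0041 with library size alone. When each rat was left out, Insr in Food matched versus Obese ranged from −0.015 to 0.037, Irs2 in Food matched versus Obese from −0.025 to 0.058 and Pik3r1 in Cmpd 1 versus Obese from −0.066 to 0.12, the last below 0 without Cmpd 1 rat 3. Insrr, which is near 0 CPM, went in Cmpd 1 versus Food matched from 0.087 to −0.63 in limma-voom and −0.15 with the replicate block, and ranged from −0.98 to 0.44 when each rat was left out.

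The number of the 9 genes called for Cmpd 1 versus Obese went from 4 to 2 with no filter on low counts and to 6 with library size alone (Irs2 and Pik3ca gained), and ranged from 2 to 4 when each rat was left out in turn, with 2 without Obese rat 1, 4 or 5 or Cmpd 1 rat 4. For Food matched versus Obese it was 1 (Akt2) in DESeq2, and 0 to 1 when each rat was left out, with 1 without Food matched rat 5. The DEGs among the 9 for Cmpd 1 versus Lean went from 2 to 1 with library size alone, and ranged from 1 to 2 when each rat was left out, with 1 without Lean rat 2, 3 or 5 or Cmpd 1 rat 2, 3 or 5. Other pathway genes called for Cmpd 1 versus Obese numbered 18, and 7 to 22 when each rat was left out, with 7 without Cmpd 1 rat 4 and 8 without Obese rat 4. The cause was not tested.

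Groups share replicate numbers, but a number marks a different rat in each group. Of 30 pairs of rats with the same number, 1 had a correlation of deviations above 0.1 (range −0.102 to 0.145), so the deviations showed no pairing by number. Whether rats with the same number shared any handling was not tested. With the replicate number as a block, the DEG count for Cmpd 1 versus Lean was 1 and Akt2 in Cmpd 1 versus Obese was 0.21 (adjusted p = 0.062, edgeR).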
